A study of Homo sapiens with 10 samples.

Results

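Genes of the plasminogen activation system were followed through 10 RNA-seq libraries of 3 lung cancer cell lines treated with control siRNA or with siRNA against p53. The genes were taken by name, and the count table held a row for each of the 6 members (PLAU, PLAUR, PLAT, SERPINE2, SERPINB2 and SERPINB5) among 57736 genes. Mutant p53 is V157F in the line NCI-H2087, R158L in the line NCI-H441 and R158P in the line NCI-H2110. The first 2 lines had n = 2 libraries for each siRNA, numbered replicates 1 and 2, and NCI-H2110 had 1 library for each, numbered replicate 2. Although titles call the treated libraries knockouts, other label fields give an siRNA, and the treatment is taken as a knockdown. Each mutation occurs in 1 established line, so line and mutation cannot be told apart, and every group carries mutant p53. Whether replicates were separate cultures is not given in the sources used here, so a p-value here reflects no more than how far these libraries spread.

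Plasminogen is a circulating zymogen that is cleaved to plasmin, a broad protease that dissolves fibrin, cuts matrix proteins and activates other proteases. Urokinase (PLAU) and tissue plasminogen activator (PLAT) make that cut, and urokinase acts mostly at the cell surface, held by its receptor (PLAUR). Serpins trap their protease in a covalent complex: SERPINE2 (protease nexin 1) inhibits thrombin and plasminogen activators, and SERPINB2 (plasminogen activator inhibitor 2) inhibits urokinase. SERPINB5 (maspin) belongs to the serpin family by sequence and is not a classical protease inhibitor. In lung and other carcinomas the urokinase receptor system is studied for its part in invasion.

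Library totals ran from 18336672 to 25810934 counts. Levels are CPM, counts scaled to a common depth, with library sizes adjusted by TMM for differences in composition. A count of 3, taken as the most that a count of 0 allows, corresponded to between 0.111 and 0.155 CPM, a limit that covers counting error only. Changes are log2 fold changes of p53 siRNA over control siRNA with their standard errors from edgeR's quasi-likelihood test, and a gene is called when its p-value, adjusted by Benjamini-Hochberg over 17978 genes, is below 0.05. The 5 epithelial markers were detected in every library, at 2367 to 8914 CPM in sum, most of it KRT18. The sum went in NCI-H2087 from 4035 and 3694 CPM to 8914 and 8822 CPM, with KRT18 going from 3348 and 3077 CPM to 7325 and 7238 CPM. In NCI-H441 the sum went from 4413 and 4166 CPM to 5657 and 6693 CPM, and in NCI-H2110 from 2367 to 2458 CPM. The 4 markers of alveolar type 2 cells and lung adenocarcinoma summed to 27.9 to 442 CPM, and in NCI-H2087 went from 370 and 399 CPM with control siRNA to 268 and 196 CPM with p53 siRNA, with SFTPB going from 15.1 and 27.8 CPM to 1.80 and 0.803 CPM. Of other cell types, 6 fibroblast markers summed to 12.3 to 49.2 CPM in NCI-H2087 and NCI-H2110 and up to 68.2 CPM in NCI-H441, and 3 endothelial markers to 0.217 to 60.8 CPM. In NCI-H2087 the endothelial sum, nearly all KDR, went from 22.5 and 24.7 CPM to 12.5 and 7.48 CPM. The 5 immune markers summed to 113 and 134 CPM with control siRNA and 257 and 364 CPM with p53 siRNA in NCI-H2087, nearly all of it CD68, while the leukocyte gene PTPRC was at most 0.0516 CPM there and at 0 with p53 siRNA. The part of any of these cell types in the changes was not tested. In bulk libraries, fewer cells of a type and less RNA per cell cannot be told apart. Pseudogenes derived from the mitochondrial genome (389 IDs) took 4.85% and 5.51% of counts with control siRNA in NCI-H2087 and 2.48% and 2.25% with p53 siRNA, and their part in the changes of that line was not tested.

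The bases just upstream of 4 members are shown: PLAU and SERPINB5, which rose with p53 siRNA in NCI-H2087, PLAUR, whose call there depended on the fit, and SERPINB2, which was almost absent. RefSeq's table (GRCh38.p14) was used for sequence only. The search took in its 7 windows for the 5 members other than PLAT, and no window of PLAT was searched. Each line below gives the 250 bases before an annotated start, 5′ to 3′ on the gene's strand. Capitals mark matches, on either strand, to TGANTCA or to GGGCGG, the core of a GC box bound by SP1. TGANTCA, with any base at N, is looser than the core site of AP-1 factors, which has C or G there. The windows are chr10:73910882-73911131 on the plus strand for PLAU (the second of its 2 windows), chr19:43670170-43670419 on the minus strand for PLAUR, and chr18:63476708-63476957 and chr18:63887455-63887704, both on the plus strand, for SERPINB5 and SERPINB2.

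PLAU: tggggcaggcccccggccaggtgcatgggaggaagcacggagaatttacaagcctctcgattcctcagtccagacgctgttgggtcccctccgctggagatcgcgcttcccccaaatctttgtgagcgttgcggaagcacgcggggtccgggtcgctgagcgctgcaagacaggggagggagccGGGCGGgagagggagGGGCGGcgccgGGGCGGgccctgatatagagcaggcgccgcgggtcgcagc
PLAUR: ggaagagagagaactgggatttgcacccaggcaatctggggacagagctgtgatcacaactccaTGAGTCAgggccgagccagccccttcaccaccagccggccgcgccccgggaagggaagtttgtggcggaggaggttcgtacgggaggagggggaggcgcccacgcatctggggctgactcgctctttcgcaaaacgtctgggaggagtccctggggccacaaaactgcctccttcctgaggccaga
SERPINB5: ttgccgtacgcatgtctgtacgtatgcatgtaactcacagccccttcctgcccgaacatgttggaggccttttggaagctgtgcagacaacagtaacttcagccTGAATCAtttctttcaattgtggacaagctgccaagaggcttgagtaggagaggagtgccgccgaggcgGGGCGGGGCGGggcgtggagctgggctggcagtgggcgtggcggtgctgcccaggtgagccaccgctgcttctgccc
SERPINB2: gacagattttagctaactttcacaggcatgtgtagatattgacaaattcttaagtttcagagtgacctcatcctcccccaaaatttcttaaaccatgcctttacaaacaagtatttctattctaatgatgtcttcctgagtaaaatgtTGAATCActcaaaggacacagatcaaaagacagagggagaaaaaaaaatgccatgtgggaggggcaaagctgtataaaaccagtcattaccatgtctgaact

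TGANTCA occurred in 3 of the 7 windows and in 6.57% of all 35116 windows of the same length in the table. It lay 186 bases upstream of the start in PLAUR, 146 bases upstream in SERPINB5 and 102 bases upstream in SERPINB2. The match read TGAGTCA in PLAUR, and TGAATCA, which is outside the AP-1 core site, in SERPINB5 and SERPINB2. GGGCGG occurred in 4 of the 7 windows against 42.6% of all windows, 3 times in the PLAU window shown, as 2 overlapping copies in SERPINB5, and in both windows of SERPINE2. The motif TATAAA, a core promoter element, was also searched for on both strands, did not overlap the other matches, and was found in 1 of the 7 windows, 30 bases upstream of the SERPINB2 start, and in 10.7% of all windows. The first PLAU window held none of the 3 motifs. These matches describe the letters in these windows and say nothing of whether a factor was bound.

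Urokinase was the member with the largest rise. PLAU stood at 138 and 167 CPM in the NCI-H2087 control libraries and at 1237 and 1361 CPM with p53 siRNA. Both treated libraries were far above both controls, and the mean level went from 153 ± 20.3 to 1299 ± 87.7 CPM (SD, n = 2). The change was 3.09 ± 0.33 log2, or 8.50-fold (edgeR adjusted p = 0.00137), and it ranked at place 44 of 17978 genes by p. The ratio was 8.93 between the libraries numbered 1 and 8.15 between those numbered 2. PLAU kept its call when any 1 library of NCI-H2087 or NCI-H441 was left out, with a change of 2.97 to 3.24 log2. An opposite-strand gene, C10orf55, shares 916 exonic bases with PLAU in GENCODE 29, and whether counting used strand is not given in the sources used here; C10orf55 had 1 to 25 counts per library, against 484 to 32213 for PLAU.

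The receptor PLAUR, which holds urokinase at the cell surface, had a smaller difference, whose call depended on the fit. It stood at 94.4 and 105 CPM with control siRNA in NCI-H2087 and at 157.7 and 176 CPM with p53 siRNA. The groups did not overlap, but the change of 0.74 ± 0.33 log2 (1.67-fold) was not called (edgeR adjusted p = 0.198). The ratio was 1.67 between libraries of either number, and with the replicate number as a block the change was called (0.74 ± 0.14 log2, adjusted p = 0.000929). It was also called with no filter on low counts (0.76 log2, adjusted p = 0.003) and in a fit of the NCI-H2087 libraries alone (0.76 log2, adjusted p = 0.0288), and not by DESeq2 (adjusted p = 0.0985) or limma-voom (adjusted p = 0.215).

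Tissue plasminogen activator rose in the same libraries. PLAT was at 124 and 188 CPM with control siRNA in NCI-H2087 and at 418 and 494 CPM with p53 siRNA, so that the lower treated library was more than 2-fold above the higher control. Its change was 1.55 ± 0.33 log2 (2.92-fold, edgeR adjusted p = 0.0216). The call was lost without control replicate 1 (1.29 log2), control replicate 2 (1.90 log2) or p53 siRNA replicate 2 (1.42 log2). Each of these fits leaves 1 library in an arm and called fewer of all genes than the main fit.

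Among the serpins, SERPINB5 rose, from 30.0 and 27.7 CPM with control siRNA in NCI-H2087 to 56.7 and 48.1 CPM with p53 siRNA. Its change was 0.86 ± 0.20 log2 (1.82-fold, edgeR adjusted p = 0.0281). That call was lost when libraries were scaled by their totals alone (0.69 log2, adjusted p = 0.0612), under which the median over all genes went from −0.03 to −0.21 log2. That scaling called more of all genes, 10.7% against 8.68% in the main fit. The SERPINB5 call was also lost when any 1 NCI-H2087 library was left out, with a change of 0.74 to 0.98 log2. Those fits leave 1 library in an arm and called fewer of all genes than the main fit. SERPINE2 had few reads: 5.47 and 5.65 CPM (106 and 150 counts) with control siRNA and 4.10 and 4.56 CPM (96 and 108 counts) with p53 siRNA. Both treated libraries were lower, but the change of −0.36 ± 0.33 log2 was not called (edgeR adjusted p = 0.553). SERPINB2 had a count of 0 in all 4 NCI-H2087 libraries, which allows up to 0.155 CPM in the shallowest.

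**Figure D1:**
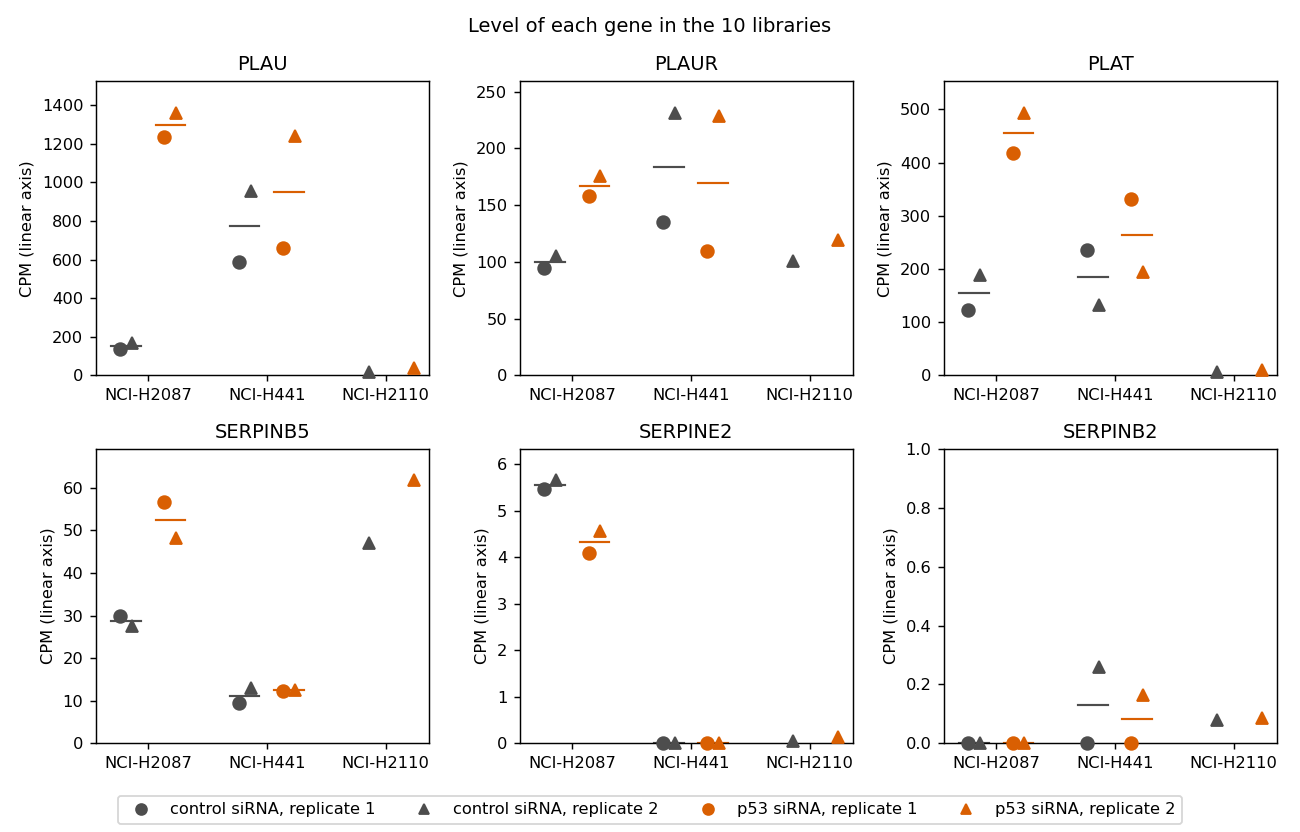
Level of each member in the 10 libraries, in CPM on a linear axis from 0, with a scale of its own for each gene; circles are replicate 1, triangles replicate 2, grey is control siRNA, orange is p53 siRNA and bars are means of n = 2. PLAU in NCI-H2087 goes from 138 and 167 CPM to 1237 and 1361 CPM, and SERPINB2 stays under 0.26 CPM in every library.

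In all, 3 of the 5 members tested in NCI-H2087 were called higher and 0 lower, where 4.98% of all genes were called higher, 3.69% lower and 8.68% in either direction. The replicate block called 4 of the 5, against 25.4% of all genes. The members were chosen with earlier results of these data known, so these counts are a description and not a test. Higher levels without overlap were seen in PLAU, PLAUR, PLAT and SERPINB5, a pattern that 25.4% of all genes showed in that direction; SERPINE2 was lower without overlap, as were 30.4% of all genes. SERPINB2 did not pass the filter on low counts and was not tested in any comparison. SERPINE2 passed it only through NCI-H2087.

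In NCI-H441 the difference between replicates was larger than the difference between siRNAs for PLAU and PLAUR. PLAU was at 586 and 956 CPM with control siRNA and at 660 and 1240 CPM with p53 siRNA, in the order of replicates 1 and 2. Replicate 2 exceeded replicate 1 by 1.63-fold in the control arm and 1.88-fold in the p53 siRNA arm, whereas p53 siRNA over control was 1.13-fold in replicate 1 and 1.30-fold in replicate 2. The fitted change was 0.30 ± 0.30 log2 (edgeR adjusted p = 0.94).

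PLAUR followed the same replicates. It was at 135 and 232 CPM with control siRNA and 110 and 228 CPM with p53 siRNA, so replicate 2 was 1.71-fold and 2.08-fold above replicate 1, and the arms overlapped. The change was −0.12 ± 0.33 log2 (edgeR adjusted p = 0.994).

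PLAT ran the other way between replicates. Replicates 1 and 2 had 236 and 133 CPM with control siRNA and 332 and 194 CPM with p53 siRNA, which puts replicate 2 at 0.564 and 0.583 of replicate 1. Within a replicate number PLAT was higher with p53 siRNA, 1.41-fold and 1.45-fold, but the fitted change of 0.51 ± 0.33 log2 was not called (edgeR adjusted p = 0.933; adjusted p = 0.127 with the replicate block). With single NCI-H441 libraries left out it ran from 0.069 log2 (without p53 siRNA replicate 1) to 0.96 log2 (without control replicate 1). The replicate ratios of PLAU, PLAUR and PLAT had the same direction in both arms of this line.

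**Figure D2:**
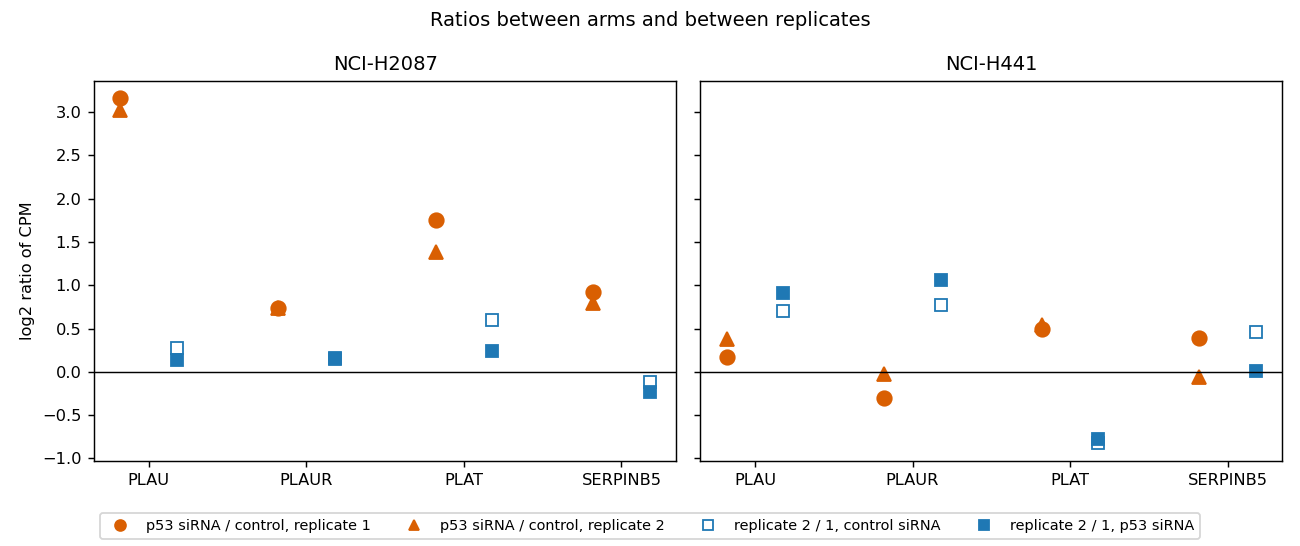
Log2 ratios of CPM for 4 members in NCI-H2087 (left) and NCI-H441 (right): orange marks are p53 siRNA over control siRNA within a replicate number, blue squares are replicate 2 over replicate 1 within an arm (open for control, filled for p53 siRNA). In NCI-H441 the blue squares of PLAU and PLAUR lie above the orange marks and those of PLAT lie below 0, at ratios of 0.564 and 0.583.

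SERPINB5 had 9.44 and 13.0 CPM with control siRNA in NCI-H441 and 12.4 and 12.5 CPM with p53 siRNA (0.15 ± 0.20 log2, edgeR adjusted p = 0.966). SERPINE2 was at a count of 0 in all 4 libraries of this line. SERPINB2 had 7 counts in control replicate 2 and 4 in p53 siRNA replicate 2, and 0 in both replicates numbered 1. No member was called in NCI-H441 by edgeR (0 of 5, with 0 at an unadjusted p below 0.05), DESeq2 (0), limma-voom (0) or with the replicate block (0). SERPINE2, 1 of these 5, had no reads in this line and could not be called. Of all genes 0.00556% were called, or 0.417% with the block, so this line gave few calls of any kind. The arms of all 5 members overlapped or were at 0, while 34% of all genes did not overlap in one direction or the other.

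In NCI-H2110 the activators were scarce and the receptor was not. PLAU had 484 counts with control siRNA and 901 with p53 siRNA, or 19.1 and 39.0 CPM, a log2 ratio of 1.03. A ratio of at least 2-fold in that direction was reached by 0.904% of the 12385 genes with at least 50 counts in either library. PLAT had 156 and 225 counts (6.14 and 9.75 CPM, log2 ratio 0.66), PLAUR 2552 and 2761 counts (100 and 120 CPM, 0.25) and SERPINB5 1198 and 1425 counts (47.2 and 61.8 CPM, 0.39). Of the 12385 genes, 0.848% had a ratio above that of PLAU, 3.55% above that of PLAT, 11.5% above that of SERPINB5 and 20.3% above that of PLAUR. These 4 ratios were positive, and with 1 library per arm they have no replicate check and no test. SERPINE2 had 1 and 3 counts and SERPINB2 had 2 and 2, too few for a ratio.

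**Figure D3:**
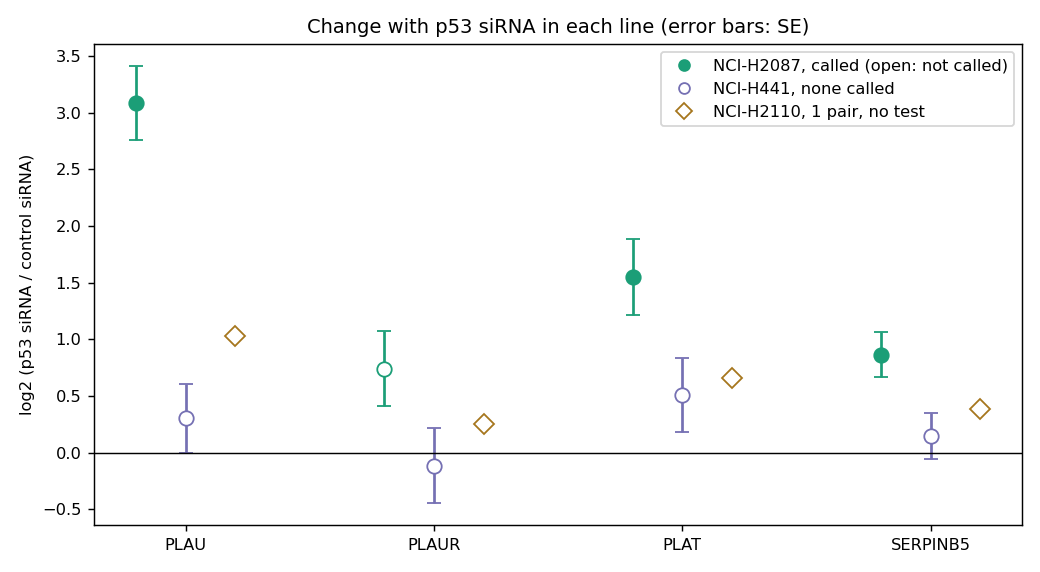
Log2 change with p53 siRNA for 4 members in each line; error bars are SE, filled circles are called by edgeR, open circles are not, and diamonds are single pairs of libraries with no test. PLAU has values of 3.09 (NCI-H2087), 0.30 (NCI-H441) and 1.03 (NCI-H2110), and in each line the point of PLAU or PLAT is above that of PLAUR.

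The difference between the changes of NCI-H2087 and NCI-H441 was tested in the same fit, and 1 of 5 members was called against 0.412% of all genes. SERPINE2, 1 of these 5, had no reads in any NCI-H441 library and could not be called. PLAU rose more in NCI-H2087, by 2.79 ± 0.43 log2 (edgeR adjusted p = 0.0355). With each of the 8 libraries of these lines left out in turn, the difference stayed between 2.39 and 3.31 log2. Each of these 8 fits leaves 1 library in an arm, and the call was lost in 6 of them. Those 6 also called fewer of all genes than the main fit. So did the fit without p53 siRNA replicate 2 of NCI-H441, where the call held. Why the call was lost was not tested. The call held without p53 siRNA replicate 1 of NCI-H2087 or p53 siRNA replicate 2 of NCI-H441. It was lost in limma-voom (2.82 log2, adjusted p = 0.0644), which called 0.172% of all genes. PLAT (1.04 ± 0.46 log2, adjusted p = 0.376), PLAUR (0.86 ± 0.47, adjusted p = 0.468) and SERPINB5 (0.72 ± 0.28, adjusted p = 0.325) were not called. Leaving out single libraries moved these differences to between 0.60 and 1.48 log2 for PLAT, 0.42 and 1.48 for PLAUR and 0.47 and 0.96 for SERPINB5, with no call. The replicate block called PLAU, PLAT (adjusted p = 0.00335) and PLAUR (adjusted p = 0.00864), where it called 8.92% of all genes.

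No member was called in the additive model of all 3 lines by edgeR, where 0.395% of all genes were called with or without the replicate block. The fitted change of PLAT was 0.96 ± 0.24 log2 (adjusted p = 0.114), that of PLAU 1.54 ± 0.44 (adjusted p = 0.149) and that of SERPINB5 0.49 ± 0.16 (adjusted p = 0.19). These 3 had an unadjusted p below 0.05, as did 2553 of all 17978 genes. DESeq2, which called 3.39% of all genes here, called PLAT alone (0.97 log2, adjusted p = 0.0086). With limma-voom, which called 0.523% of all genes, 0 members were called.

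The range of a member over the libraries differed widely between members. Over the 10 libraries PLAU spanned 71.4-fold and PLAT 80.5-fold, whereas PLAUR spanned 2.45-fold and SERPINB5 6.54-fold. From low to high, the order of PLAU was NCI-H2110 control, NCI-H2110 p53 siRNA, NCI-H2087 control, NCI-H441 control, NCI-H441 p53 siRNA and NCI-H2087 p53 siRNA. The 2 NCI-H441 groups overlapped, and the higher NCI-H441 library with p53 siRNA (1240 CPM) reached the lower NCI-H2087 library with p53 siRNA (1237 CPM). The means of PLAT had the same order, but the libraries of NCI-H2087 and NCI-H441 controls overlapped, with means of 156 ± 45.7 and 185 ± 72.7 CPM (SD, n = 2). PLAUR means lay between 99.8 and 183 CPM in all 6 groups, and the ranges of the NCI-H441 groups took in both NCI-H2087 libraries with p53 siRNA. SERPINB5 was lowest in NCI-H441, at 11.2 ± 2.53 and 12.5 ± 0.099 CPM (SD, n = 2), which overlapped, then NCI-H2087 control, with NCI-H2110 control just below the NCI-H2087 libraries treated with p53 siRNA and NCI-H2110 p53 siRNA on top.

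With control siRNA, NCI-H2087 was tested against NCI-H441. PLAU was lower in NCI-H2087 (−2.34 ± 0.32 log2, edgeR adjusted p = 0.000335), and SERPINB5 was higher by 1.36 ± 0.20 log2 (adjusted p = 0.000621). SERPINE2 was higher by at least 42.4-fold, its lowest level in NCI-H2087 against the 3-count limit per library in NCI-H441. This is a description with no test, since the gene passed the filter only through NCI-H2087. Neither PLAUR (−0.88 ± 0.33 log2, adjusted p = 0.0582) nor PLAT (−0.24 ± 0.33 log2, adjusted p = 0.582) was called, which makes 2 of the 4 members other than SERPINE2. PLAUR was called by DESeq2 (−0.86 log2, adjusted p = 0.0207), with no filter on low counts, and without control replicate 1 of NCI-H441 (−1.24 log2, adjusted p = 0.0309) or either of its p53 siRNA replicates (adjusted p = 0.0163 each). Without control replicate 2 of NCI-H441 it was −0.42 log2 (adjusted p = 0.432). These lines differ in much of their expression: 42.1% of all genes were called, 22% higher and 20.1% lower in NCI-H2087.

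Within a library the balance of urokinase and its receptor does not depend on scaling. In counts, PLAU per PLAUR was 1.47 and 1.59 in NCI-H2087 with control siRNA, against 7.84 and 7.73 with p53 siRNA. NCI-H441 had 4.34 and 4.13 with control and 6.01 and 5.43 with p53 siRNA, and NCI-H2110 had 0.19 and 0.326. So the ratio was close between replicates even in NCI-H441, where each gene alone differed between them, and it was higher with p53 siRNA in every pair of libraries. Per kilobase of annotated exons (2950 bases for PLAU, 4457 for PLAUR and 6618 for PLAT, merged over GENCODE 29 transcripts), the level of PLAU was 2.22 to 11.8 times that of PLAUR in NCI-H2087 and NCI-H441, and 0.287 and 0.493 times in NCI-H2110. On the same scale PLAU exceeded PLAT in all 10 libraries, by 1.99 to 16.1 times. These ratios between genes rest on the annotated lengths and on even coverage, which were not checked.

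The genes whose log2 CPM followed each member most closely over the 10 libraries are given as a description and share lines among their 10 points. For PLAU they were SH3KBP1, an adaptor protein of receptor endocytosis (Pearson r = 0.987), PUS7, a pseudouridine synthase (r = 0.985) and GADD45A, a stress-response gene (r = 0.984). For PLAT they were RGS17, a regulator of G protein signalling (r = 0.991), JUN, an AP-1 subunit (r = 0.99) and SNAI2, a transcription factor of mesenchymal transition (r = 0.986). PLAUR was followed less closely, by THAP1 (r = 0.937), the pseudogene BMS1P20 (r = 0.931) and TRAF3, a signalling adaptor (r = 0.898). SERPINB5 was nearest to TLR6 (r = 0.991), a Toll-like receptor, CCT6A, a chaperonin subunit (r = 0.99) and GDAP2 (r = 0.987), and SERPINE2, present almost only in NCI-H2087, to ACOXL (r = 0.996), HDGFL3 (r = 0.996) and DGLUCY (r = 0.995). Among the members themselves, PLAU had r = 0.905 with PLAT, r = 0.717 with PLAUR and r = −0.46 with SERPINB5.

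The other genes of the pathway were taken from 7 lists of 93 genes, of which 72 were tested. In NCI-H2087, 16 rose and 6 fell, which is 30.6% of those tested against 8.68% of all genes. The lists were chosen with earlier results of these data known, so this share is a description and not a test. The lists' median change was 0.14 log2 against −0.03 for all genes. The replicate block called 24 higher and 17 lower, where it called 25.4% of all genes. That share also belongs beside the block's NCI-H2087 counts in each list below. None of the 72 was called in NCI-H441, and 5 were below 0.05 before adjustment, as were 796 of all 17978 genes. DESeq2, which called 0.167% of all genes there, called 1 of the 72, and limma-voom called 0. With the replicate block 3 were called, namely ANXA2, MMP9 and LAMB3, against 0.417% of all genes.

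Plasminogen itself was not detectable beyond 2 counts in any library: PLG had 2 and 1 counts in NCI-H2110, 1 in NCI-H441 p53 siRNA replicate 1 and 0 in the others. Of 6 tested genes in the list of plasminogen and proteases acting on it or on pro-urokinase, 3 rose in NCI-H2087 and 0 fell, or 3 and 1 with the replicate block. The cathepsins CTSL (1.31 ± 0.19 log2, edgeR adjusted p = 0.00449) and CTSB (0.84 ± 0.20, adjusted p = 0.0316), lysosomal proteases that can activate pro-urokinase, rose, as did coagulation factor F12 (1.24 ± 0.28, adjusted p = 0.0241). CTSB went from 907 and 954 CPM to 1640 and 1692 CPM, whereas F12 stayed between 2.27 and 6.13 CPM.

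Of 6 cell surface binding sites of plasminogen, 3 rose in NCI-H2087 and 0 fell. ANXA2, the annexin that binds plasminogen and tissue plasminogen activator together with S100A10, went from 868 and 796 CPM to 3242 and 2484 CPM (1.78 ± 0.20 log2, adjusted p = 0.00178). In NCI-H441 the change of ANXA2 was 1.13 ± 0.20 log2 and was not called in the main fit (edgeR adjusted p = 0.373). It was called there with the replicate block (adjusted p = 0.00102). Over the 3 lines ANXA2 was called (1.35 ± 0.17 log2, adjusted p = 0.00945), though not without control replicate 1 of NCI-H2087. With single libraries left out that change was 1.225 to 1.443 log2. In NCI-H2087 KRT8, a keratin reported to bind plasminogen outside the cell, rose by 1.26 ± 0.16 log2 (adjusted p = 0.00256). PLGRKT, a plasminogen receptor, rose there by 0.91 ± 0.17 log2 (adjusted p = 0.0134). ENO1 (0.74 ± 0.21 log2, adjusted p = 0.0553) and S100A10 (0.63 ± 0.20, adjusted p = 0.0807) were not called, but both were with the replicate block (adjusted p = 0.00108 and 0.00293), which called 5 of the 6 higher. KRT8 is also 1 of the 5 epithelial markers whose sum is given above.

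In the list of partners and clearance receptors of the urokinase receptor, 4 of 19 genes rose in NCI-H2087 and 2 fell. The integrin subunit ITGA3 (1.01 ± 0.21 log2, adjusted p = 0.0179) and LRP8, a lipoprotein receptor (0.84 ± 0.17, adjusted p = 0.0185), were among those that rose. IGF2R, which binds plasminogen and the urokinase receptor, fell by 1.16 log2 (−1.16 ± 0.18, adjusted p = 0.00576), and DPP4, a cell surface peptidase, by 1.70 log2 (−1.70 ± 0.32, adjusted p = 0.0132). LRP1, the endocytic receptor that clears urokinase bound to its inhibitors, was at 16.1 and 24.9 CPM against 8.76 and 12.7 CPM and was not called (adjusted p = 0.0877), but was called lower with the replicate block (adjusted p = 0.00149). The block called 5 genes of this list higher and 6 lower.

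Further inhibitors showed 2 rises and 1 fall in 11 genes tested, or 2 and 3 with the replicate block. TFPI, an inhibitor of tissue factor, rose from 138 and 169 CPM to 463 and 460 CPM (1.59 ± 0.30 log2, adjusted p = 0.0134), and TFPI2, a related inhibitor of plasmin, by 0.86 ± 0.20 log2 (adjusted p = 0.0266). SERPINF2, the main inhibitor of plasmin in blood, fell from 20 and 34 counts to 5 and 6 counts (−2.29 ± 0.49 log2, adjusted p = 0.0201). Among 11 other clade B serpins, relatives of SERPINB2 and SERPINB5, 5 were tested and 0 were called in NCI-H2087, or 1 with the replicate block, SERPINB7, lower (adjusted p = 0.0168). SERPINB7 was at 376 and 771 counts in NCI-H441 controls against 24 and 25 in NCI-H2087 controls (−4.37 ± 0.41 log2, adjusted p = 3.4e-05), and SERPINB10, SERPINB11, SERPINB12 and SERPINB13 had at most 2 counts in any library. SERPINB10 shares 547 exonic bases with SERPINB2 on the same strand, so their few reads may not be separable.

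Of 17 tested substrates of plasmin or urokinase, 4 rose and 3 fell in NCI-H2087. The collagenase genes went both ways: MMP1 rose from 17.0 and 14.6 CPM to 161 and 240 CPM (3.67 ± 0.47 log2, adjusted p = 0.00255), and MMP13 fell from 16.6 and 15.8 CPM to 1.80 and 1.65 CPM (−3.23 ± 0.24, adjusted p = 0.000375). MMP13 was the only pathway gene called for the difference between lines (−3.11 ± 0.31 log2, adjusted p = 0.0137). That call was lost without any 1 of the 4 control libraries of these lines, in fits that called fewer of all genes than the main fit. With single libraries left out the difference stayed between −3.27 and −2.93 log2. FGA, a fibrinogen chain, fell from 3.51 and 3.05 CPM to 1.37 and 0.887 CPM (−1.53 ± 0.28 log2, adjusted p = 0.0136), and TGFB2, a growth factor, also fell (−1.08 ± 0.21 log2, adjusted p = 0.0152). In NCI-H2110, where PLAU and PLAT were lowest, FGA was at 1013 and 1361 CPM and FGG at 928 and 1076 CPM. The other fibrinogen chain, FGB, was at only 10.6 and 10.5 CPM there. The three-finger relatives of PLAUR had 0 of 8 tested genes called in NCI-H2087 (adjusted p = 0.0565 at the lowest, for LY6K). With the replicate block 3 were called higher, LY6K, LYPD5 and CD59, where the block called 25.4% of all genes. The block called 6 substrates higher and 6 lower.

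Of the genes named outside the naming rule, PLG, ENO1, S100A10, LRP1, LAMB3, MMP9, FGG, FGB in NCI-H2110, LY6K, LYPD5, CD59 in NCI-H2087 and the undetected serpins were chosen after their values were seen.

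**Figure D4:**
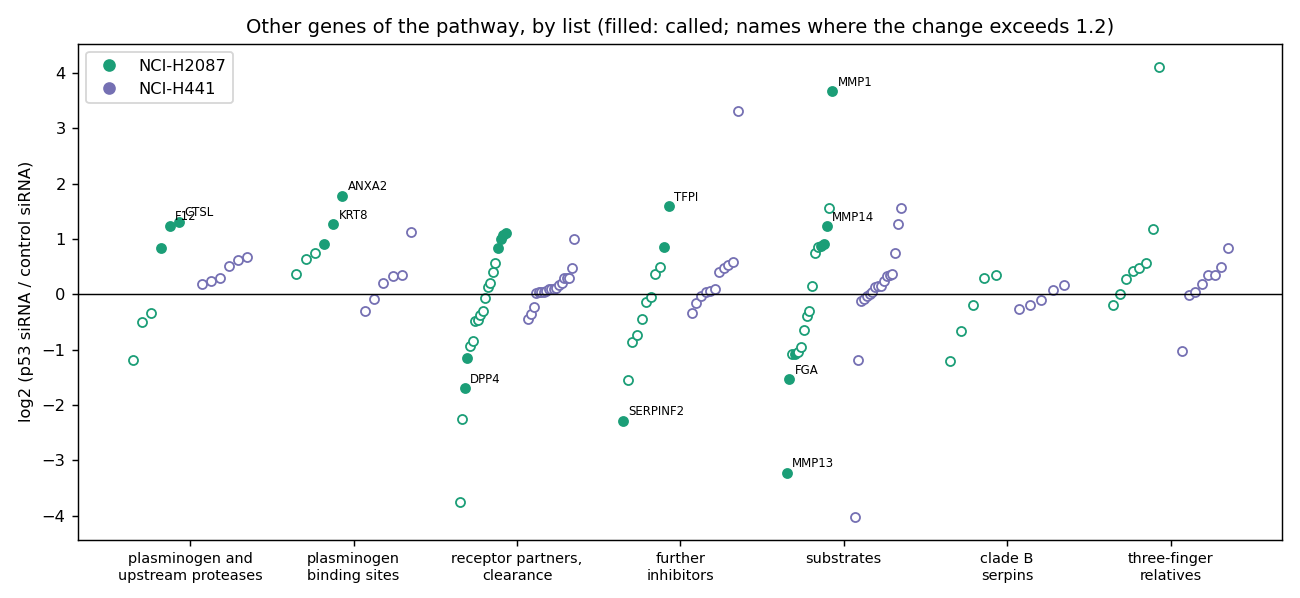
Log2 change with p53 siRNA of the 72 tested pathway genes in NCI-H2087 (green) and NCI-H441 (purple), sorted within each list; filled points were called by edgeR, and names are given where the change was above 1.2 in either direction. All 22 filled points are in NCI-H2087, from MMP1 at 3.67 to MMP13 at −3.23.

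Of the 17 genes that the naming rule gave in NCI-H2087, ANXA2 and MMP13 kept their call under all 14 alternatives. Without control replicate 2 the other 15 were not called, and TFPI2 and CTSB were also lost when libraries were scaled by their totals. Of the 27 named between the control libraries of NCI-H2087 and NCI-H441, 23 were called under all 12 alternatives, where 47 of the 72 tested genes were called (18 higher and 29 lower in NCI-H2087, 65.3%, against 42.1% of all genes).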

How the data were processed

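The mRNA of the 3 lines was sequenced, with 5 control and 5 p53 siRNA libraries. The authors deposited raw counts for each gene, as whole numbers; per the submitters' processing notes Bowtie2, RSEM 1.2.12 and hg19 were used, with no role given. Gene IDs were named from a names table (51959 of 57736) or GENCODE 29 (342). The members and gene lists were chosen with earlier results of these data known. The level of the siRNA's target and of some other genes of the pathway is not reported here.

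Genes with low counts were removed by edgeR's filter, which left 17978 genes with 99.96% of counts. In R 4.3.3, edgeR 4.0.16 fitted TMM-scaled counts by quasi-likelihood over 6 groups of line and siRNA, with 4 residual degrees of freedom, for changes within a line, their difference and the control libraries, and an additive model of line and siRNA for the 3 lines. The Benjamini-Hochberg adjustment ran over the whole table, and the common biological coefficient of variation was 19.8%. Per-gene changes in NCI-H2110 used genes with at least 50 counts in either library. The fits were tested on simulated data with known changes.

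Named genes were the 6 members, up to 4 called genes of smallest p per pathway list and comparison, and the 3 genes most correlated with each member (log2 CPM, prior count 2, mean CPM of at least 5). Replicate numbers were taken to pair libraries, since the replicate 2 minus replicate 1 differences of the arms correlated over 9332 genes at r = 0.534 in NCI-H2087 and 0.595 in NCI-H441; a blocked fit was run beside the main one. Replicate counts differed by more than sampling noise (chi-square per gene 21.3 to 63.6). Alternatives were DESeq2 1.42.0, limma-voom (limma 3.58.1), scaling by library totals, no filter, the block, a prior count of 0.5 for the NCI-H2110 ratios, NCI-H2087 or NCI-H441 alone, the fit without NCI-H2110, and leaving out each library.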

Additional observations from a re-analysis of the deposited data

Results flagged for a closer look

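The change of PLAU with p53 siRNA differed between lines by the test of the difference itself, at 2.79 log2 more in NCI-H2087 than in NCI-H441 (edgeR adjusted p = 0.0355). The call was lost by limma-voom (adjusted p = 0.0644) and in 6 of the 8 fits that left out 1 library. Those 6 fits called fewer of all genes than the main fit, and over all 8 the difference was 2.39 to 3.31 log2. PLAU was higher with p53 siRNA in both replicate numbers of each line, 8.93-fold and 8.15-fold in NCI-H2087 and 1.13-fold and 1.30-fold in NCI-H441.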

How the results depend on the processing

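Of the alternatives tried for the members and named pathway genes, 810 kept direction and call, 66 lost a call, 14 gained one and 7 reversed; for all of them the cause was not tested. The count of members called in NCI-H2087 was 4 with no filter, with the block and in a fit of that line alone, 2 with library totals, and ran from 1 to 3 when single libraries were left out; only PLAU stayed called without control replicate 1, control replicate 2 or p53 siRNA replicate 2. The count for the difference between lines was 2 with no filter, 0 by limma-voom and 0 to 1 with libraries left out. The replicate block gave 3 for that difference and changed the calls of PLAUR and PLAT named in the report and no other call of a member. Among pathway genes it called 41 in NCI-H2087 against 22, 3 in NCI-H441 against 0 and 24 for the difference against 1. Of all genes it called 25.4%, 0.417% and 8.92% in these comparisons, against 8.68%, 0.00556% and 0.412% in the main fit. DESeq2 called 10 pathway genes for the difference and 8 over the 3 lines against 1, where limma-voom called 2. Of all genes DESeq2 called 2.65% for the difference and 3.39% over the 3 lines. Over the 3 lines the count of members was 1 by DESeq2 and 2 with no filter, a setting that called 3.83% of all genes. Reversals were in changes that were not called. Leaving out single NCI-H441 libraries, the changes in that line ran from −0.22 to 0.71 log2 for PLAU, −0.74 to 0.34 for PLAUR, 0.069 to 0.96 for PLAT and −0.085 to 0.41 for SERPINB5. PLAU was negative with p53 siRNA replicate 2 left out and also at −0.03 without control replicate 1, PLAUR positive without control replicate 2 and also, at 0.32, without the first p53 siRNA replicate, while SERPINB5 was negative without control replicate 1. Between control libraries PLAT ran from −0.59 to 0.21, positive without NCI-H2087 replicate 1 (0.02) or NCI-H441 replicate 1. A lone library left in an arm was assumed to vary like the other groups. In NCI-H2087 the fits without 1 of its libraries called fewer of all genes than the main fit, and why a call was lost there was not tested. Depth limits SERPINB2 and SERPINE2, with at most 7 and 150 counts in any library.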
